A study of Mus musculus with 12 samples.

Results

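This account covers 10 mouse genes that were listed because their messenger RNA level differed between osteoclasts with and without Mincle, and that lie away from chromosome 11: Wdfy1, Cnbd2, Nnt, Rab4a, Cdk5rap1, Nbea, Lrmda, Eps8l1, Mid1 and Wwc2. They are 10 of 46983 genes in the count table, all 10 were found by symbol, and all 10 are among the 14153 genes that passed the filter on low counts. They were chosen on the knockout (KO) against wildtype (WT) difference in these same libraries, so those differences are given as a description and without a test. The cells were osteoclasts, the bone-resorbing cells, grown from bone marrow monocytes with the growth factor M-CSF (20 ng/ml) and the osteoclast-inducing ligand RANKL (10 ng/ml). The WT mice are labelled C57BL/6, and the KO mice lack Mincle on a C57BL/6 background. The sources used here do not give the substrain, the number of backcrosses or whether WT and KO mice were littermates. Each culture received, on day 1 and for 24 hours, the supernatant of viable osteocytes (the control) or of osteocytes made necrotic by serum starvation, and RNA was taken on day 3. Each of the 4 groups (WT viable, WT necrotic, KO viable, KO necrotic) held 3 libraries. Whether replicates stem from separate mice or cultures is not said, and the spread behind each p-value may therefore be technical.

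A knockout line can differ from its control at places other than the targeted gene. Chromosome stretches from the embryonic stem cell strain can remain linked to the target after backcrossing, and the C57BL/6J and C57BL/6N substrains have drifted apart at a set of known genes. Nnt and Wdfy1 are among those genes: C57BL/6J mice carry a deletion of several exons of Nnt, and Wdfy1 is known to be expressed at different levels in the substrains. This is background on such lines, and the origin of the differences below was not tested.

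The targeted gene checked the labels. Clec4e, which encodes the C-type lectin receptor Mincle, stood at 24.2 ± 1.71 CPM (counts scaled to library size with TMM factors, mean ± SD, n = 3) in WT viable while the KO viable libraries were at 1.88 ± 0.479 CPM. The libraries held from 16382366 to 49612055 counts, and the deepest was WT viable 3. Where a gene had no count, its level could still be as high as 3 counts (0.0598 to 0.185 CPM by library), a limit that covers counting error only. The 13 osteoclast markers, among them Acp5 and Ctsk, were abundant in every library, and within each supernatant their sums were lower in KO without overlap. They ran from 19968 to 20481 CPM in WT viable against 17831 to 18169 CPM in KO viable, and from 25258 to 26576 CPM in WT necrotic against 22414 to 23359 CPM in KO necrotic libraries. Of the 13, 3 fell in KO under viable (Mmp9, Ctsk and Ckb) and 3 under necrotic supernatant (Mmp9, Acp5 and Ocstamp), while the other 10 in each comparison did not pass. The sums rest largely on Mmp9, Ctsk, Acp5 and Ckb, which averaged 5729, 5546, 4457 and 2064 CPM in WT viable libraries. Among 12 macrophage markers 2 rose under viable and 1 under necrotic supernatant, and among 10 neutrophil markers 1 rose and 1 fell under viable and 5 fell under necrotic supernatant. No dendritic, lymphoid, erythroid or platelet marker tested passed, but only 5 of the 8 lymphoid markers could be tested. The immunoglobulin genes Igkc and Ighg2b, which are not among these markers, were higher in KO under both supernatants. Their log2 fold changes were 1.63 and 1.80 for Igkc and 2.51 and 2.30 for Ighg2b under viable and necrotic supernatant. A difference in cells of the B lineage is therefore not excluded by the lymphoid markers. The 11 stromal and bone cell markers summed to between 61.1 and 94.7 CPM in WT viable, 32.2 and 48.3 in WT necrotic, 24.7 and 46.5 in KO viable and 20.2 and 36.8 in KO necrotic libraries, and Lum was at 0 in the KO libraries. Of the 8 stromal markers tested, 3 were lower in KO under viable and 1 under necrotic supernatant. The part of these marker shifts in the values below was not tested, and in bulk RNA fewer cells of a type and less RNA per cell cannot be told apart.

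All 10 genes separated the genotypes without overlap between the 6 WT and the 6 KO libraries, as did 4.3% of all tested genes. This follows from how the genes were listed. Of the 10, 6 were lower in KO under both supernatants (Wdfy1, Cnbd2, Nnt, Rab4a, Cdk5rap1 and Nbea) and 4 were higher (Lrmda, Eps8l1, Mid1 and Wwc2). They lie on 8 chromosomes, none on chromosome 6, which holds Clec4e. Over all tested genes, 5.84% passed an adjusted p of 0.05 in KO minus WT under viable supernatant (2.87% higher and 2.97% lower) and 8.13% under necrotic supernatant (5% higher and 3.12% lower).

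**Figure D1:**
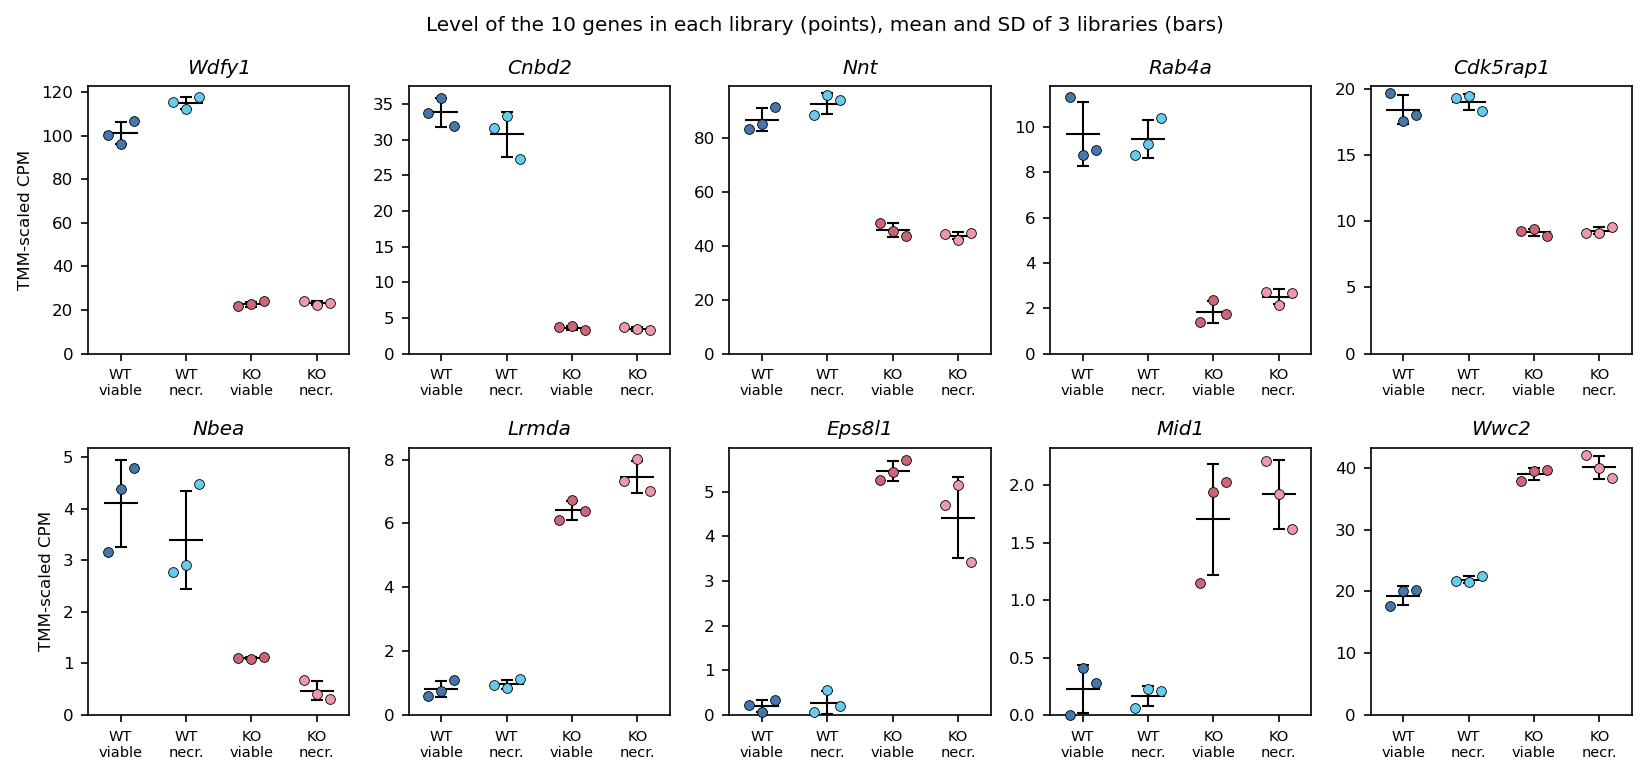
TMM-scaled CPM (vertical axis, from 0) of each of the 10 genes in each of the 12 libraries, by group; points are libraries, and bars are the mean and SD of 3 libraries. The upper row and Nbea are the genes lower in KO, and the other 4 panels are the genes higher in KO; no KO library lies within the WT range.

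Wdfy1 (ENSMUSG00000073643, chromosome 1, 79702262 to 79776143, minus strand, GRCm38) encodes a protein with a FYVE domain that binds the lipid PI3P on early endosomes, and it has been described as an adaptor that helps TRIF join TLR3 and TLR4. Wdfy1 was measured at 101, 96.5 and 107 CPM in the WT viable libraries and at 115, 112 and 118 CPM in the WT necrotic ones. The KO libraries gave 21.6, 22.6 and 24.0 CPM under viable and 24.1, 22.3 and 23.2 CPM under necrotic supernatant. The lowest WT library was thus 4.01 times the highest KO library. The log2 fold change, KO minus WT, was -2.16 (SE 0.06) under viable and -2.31 (SE 0.06) under necrotic supernatant. Mrpl44, whose gene overlaps Wdfy1 on the opposite strand, did not pass in either comparison (log2 fold changes -0.12 and -0.19, edgeR adjusted p = 0.328 and 0.0869). Of the WDFY relatives, none fell. Under necrotic supernatant Wdfy2 rose (0.58, SE 0.14, adjusted p = 0.0232), as did Wdfy3 (0.37, adjusted p = 0.00662). With viable supernatant neither passed (0.39 for Wdfy2, adjusted p = 0.0970, and 0.22 for Wdfy3, adjusted p = 0.0569).

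Among 19 other tested genes of FYVE proteins and PI3P on endosomes, 2 rose in KO under viable supernatant, 4 rose under necrotic supernatant and 0 fell in either. The early endosome tether Eea1 rose under both (0.22, adjusted p = 0.0459, and 0.32, adjusted p = 0.00795), and Pikfyve, the kinase that turns PI3P into PI(3,5)P2, rose under viable supernatant (0.24, adjusted p = 0.0213). The list's median log2 fold change was 0.11 under viable and 0.09 under necrotic supernatant, against a median of -0.01 over all tested genes in each. Of 16 genes of TLR3 and TLR4 signalling through TRIF, the kinase gene Ikbke rose under viable (0.24, adjusted p = 0.0393), and Cd14, the co-receptor of TLR4, fell under necrotic supernatant (-0.21, adjusted p = 0.0173). The other 15 in each comparison did not pass.

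Nnt encodes the nicotinamide nucleotide transhydrogenase of the inner mitochondrial membrane, which uses the proton gradient to make NADPH from NADH. Its counted entry (ENSMUSG00000025453) lies on chromosome 13 from 119335448 to 119408997 on the minus strand, with up to 17 exons in a transcript. Nnt stood at 83.3, 84.9 and 91.4 CPM in the WT viable libraries and at 88.3, 95.6 and 93.8 CPM in the WT necrotic ones. The KO libraries held 48.5, 45.3 and 43.6 CPM under viable and 44.3, 42.2 and 44.6 CPM under necrotic supernatant. Neither genotype was near 0, and KO minus WT was -0.92 (SE 0.06) and -1.08 (SE 0.06) on the log2 scale. The GRCm38 reference is a C57BL/6J genome, so reads from Nnt exons that this genome lacks have no place to be counted, and the table gives no counts by exon. GENCODE M21 lists a second Nnt entry within this interval that is not among the identifiers of the count table.

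Of 20 other tested genes of NADPH supply and peroxide handling in mitochondria, 0 passed under viable supernatant and 3 fell under necrotic supernatant: the glutathione peroxidase gene Gpx1 (-0.23, adjusted p = 0.0190), the thioredoxin reductase gene Txnrd2 (-0.27, adjusted p = 0.0303) and Txn2, mitochondrial thioredoxin (-0.21, adjusted p = 0.0369). The median was -0.12 under viable and -0.07 under necrotic supernatant. With Nnt and Wdfy1 left out, 6 more genes known to differ between C57BL/6J and C57BL/6N were on the list, of which 4 could be tested. None of these 4 passed under either supernatant: Cyfip2 had log2 fold changes of 0.07 and 0.04, Ide of -0.06 and -0.02, Nlrp12 of 0.31 and 0.09, and Fgfbp3 of -0.46 and -0.16. Nlrp12 and Fgfbp3 were low, with medians of 1.05 and 1.08 CPM in WT libraries. Whether the known substrain differences at these 4 genes alter their RNA level was not tested. Crb1 had at most 0.0199 CPM in any library, below the limit for a count of 0, and Entpd4 was at 0 in all 12. Entpd4b, an annotated copy of Entpd4, ranged from 0.0558 to 1.23 CPM in WT and from 0.0957 to 2.06 CPM in KO libraries, and reads that fit both copies can have been lost.

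A pair of the genes lie close together on chromosome 2. Cdk5rap1 (ENSMUSG00000027487, 154335380 to 154373010, minus strand) and Cnbd2 (ENSMUSG00000038085, 156312299 to 156375638, plus strand) start 1.94 Mb apart. Cdk5rap1 encodes an enzyme that adds a methylthio group to mitochondrial transfer RNAs. Its level was 19.7, 17.6 and 18.0 CPM in the WT viable libraries, 19.3, 19.5 and 18.3 CPM in WT necrotic, 9.23, 9.38 and 8.87 CPM in KO viable and 9.13, 9.10 and 9.58 CPM in KO necrotic libraries. The log2 fold change was -1.01 (SE 0.08) under viable and -1.04 (SE 0.08) under necrotic supernatant. Within groups, the pooled SD of Cdk5rap1 was 0.06 on the log2(CPM + 0.5) scale, against a median of 0.11 for 501 genes of like mean level, itself included. The SD was also below that median for Wdfy1, Nnt, Lrmda and Wwc2. It was above it for Eps8l1 (0.308 against 0.208), Mid1 (0.312 against 0.249), Nbea (0.255 against 0.214), Rab4a (0.205 against 0.158) and Cnbd2 (0.105 against 0.0999). Listing by the strength of a difference can favour a small spread.

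Cnbd2 encodes a protein with a cyclic nucleotide-binding domain that is needed for normal sperm in mice. It was measured at 33.7, 35.9 and 31.9 CPM in the WT viable libraries and at 31.7, 33.3 and 27.3 CPM in the WT necrotic ones. In KO it was 3.73, 3.81 and 3.32 CPM under viable and 3.68, 3.43 and 3.24 CPM under necrotic supernatant, well above the limit for a count of 0. On the log2 scale KO minus WT was -3.23 (SE 0.10) and -3.15 (SE 0.10). Scand1, which overlaps Cnbd2, did not pass (-0.23, adjusted p = 0.138, and -0.13, adjusted p = 0.367). None of 9 tested cyclic nucleotide-binding genes passed in KO minus WT, and Cnbd1 was at 0 in all 12 libraries.

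Of 15 genes of mitochondrial transfer RNA modification besides Cdk5rap1, 1 fell under each supernatant: Hsd17b10, a subunit of mitochondrial RNase P, under viable (-0.27, adjusted p = 0.00791), and the pseudouridine synthase gene Pus1 under necrotic supernatant (-0.33, adjusted p = 0.0255). Of 12 mitochondrially encoded genes tested, 0 passed under viable supernatant and 3 rose in KO under necrotic supernatant. These 3 encode subunits of respiratory complex I: mt-Nd5 (0.53, adjusted p = 0.00768), mt-Nd3 (1.22, adjusted p = 0.0135) and mt-Nd4l (0.98, adjusted p = 0.0283). The larger fold changes rest on low levels. From WT necrotic to KO necrotic, mt-Nd3 went from 2.22 ± 1.02 to 5.02 ± 0.509 CPM and mt-Nd4l from 1.67 ± 0.801 to 3.18 ± 0.659 CPM. The abundant mt-Nd5 went from 2135 ± 237 to 3085 ± 239 CPM. The list's median was -0.01 under viable and 0.35 under necrotic supernatant.

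Rab4a (ENSMUSG00000019478, chromosome 8, 123805985 to 123835287, plus strand) encodes a small GTPase of rapid recycling from early endosomes. Its level was 11.3, 8.76 and 9.01 CPM in the WT viable libraries, 8.77, 9.25 and 10.4 CPM in WT necrotic, 1.39, 2.36 and 1.74 CPM in KO viable and 2.73, 2.13 and 2.65 CPM in KO necrotic libraries. The log2 fold change was -2.42 (SE 0.17) under viable and -1.91 (SE 0.16) under necrotic supernatant. Rab4b, its close paralog, was low in every group, from 0.484 ± 0.198 CPM in WT viable to 0.827 ± 0.352 CPM in KO necrotic libraries, and did not pass (adjusted p = 0.450 and 0.393). Reads that fit both paralogs could have been lost or split. Of 23 other genes of endosomal recycling, 0 passed under viable supernatant, and only Ehd1, a membrane-remodelling ATPase, passed under necrotic supernatant (-0.22, adjusted p = 0.0377).

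Nbea in KO and Lrmda, Eps8l1 and Mid1 in WT rested on few counts, from 0 to 55 per library. Only Eps8l1 and Mid1 had libraries below the limit of 3 counts, while Nbea in KO had at least 7 and Lrmda in WT at least 11. The promoters of these 4 genes are shown because they had the lowest counts of the 10 genes. Each is the 250 bases before the RefSeq start nearest to the annotated gene start (GRCm38.p6), read 5′ to 3′ on the gene's strand. Capitals mark matches on either strand to GGGCGG, the core of the GC box, or to GAGGAA, the core bound by PU.1-type ETS factors. Lrmda is chr14:22019462-22019711 (plus), Eps8l1 chr7:4460447-4460696 (plus), Nbea chr3:56183702-56183951 (minus) and Mid1 chrX:169684949-169685198 (plus).
Lrmda: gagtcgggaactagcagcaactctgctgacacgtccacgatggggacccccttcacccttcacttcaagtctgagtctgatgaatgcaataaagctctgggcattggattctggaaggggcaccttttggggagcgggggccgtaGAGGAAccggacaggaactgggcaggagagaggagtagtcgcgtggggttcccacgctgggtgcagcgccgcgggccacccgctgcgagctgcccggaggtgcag
Eps8l1: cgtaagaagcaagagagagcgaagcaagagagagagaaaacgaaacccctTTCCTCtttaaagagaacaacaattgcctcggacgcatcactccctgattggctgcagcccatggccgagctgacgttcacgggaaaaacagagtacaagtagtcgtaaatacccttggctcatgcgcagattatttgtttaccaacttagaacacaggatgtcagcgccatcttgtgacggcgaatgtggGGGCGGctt
Nbea: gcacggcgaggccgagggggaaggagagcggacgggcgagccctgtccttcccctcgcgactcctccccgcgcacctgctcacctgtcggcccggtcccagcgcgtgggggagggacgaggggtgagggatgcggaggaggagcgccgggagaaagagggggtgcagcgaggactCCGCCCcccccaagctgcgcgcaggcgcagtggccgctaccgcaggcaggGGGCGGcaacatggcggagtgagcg
Mid1: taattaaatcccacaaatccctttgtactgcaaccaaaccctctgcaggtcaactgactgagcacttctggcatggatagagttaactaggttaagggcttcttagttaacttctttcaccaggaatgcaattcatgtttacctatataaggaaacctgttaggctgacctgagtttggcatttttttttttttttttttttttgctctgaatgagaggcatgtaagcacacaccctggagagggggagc

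These 4 windows have little in common. Nbea has 74.8% G and C with 28 CpG dinucleotides, Lrmda 62.4% with 15, Eps8l1 49.6% with 14, and Mid1 40.8% with 0. Over 32851 RefSeq promoter windows of the same length the median was 52.4% with 6 CpG. GGGCGG is present in Nbea (2 matches) and Eps8l1 (1 match) and in 32.7% of all windows, and GAGGAA in Lrmda and Eps8l1 (1 match each) and in 23.3% of all windows. None of the 4 windows holds TATAAA, the TATA box core, which is in 12.4% of all windows. Nor does any hold the AP-1 motif TGANTCA (in 6.75% of all windows) or the E-box CACGTG (in 6.02%). Entries for Cdk5rap1 and Wwc2 also exist, with 15 and 26 CpG and with 1 and 5 matches to GGGCGG, 1 of which overlaps a GAGGAA match in Wwc2. Wdfy1, Cnbd2, Nnt and Rab4a have no entry in that table. RefSeq lists 3 starts each for Eps8l1 and Mid1, so their transcripts need not begin beside the window printed.

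Nbea (ENSMUSG00000027799, chromosome 3, 55625195 to 56183701, minus strand) encodes neurobeachin, a large BEACH domain protein of membrane traffic, known best at synapses. It was measured at 3.16, 4.38 and 4.78 CPM in the WT viable libraries and 2.78, 2.90 and 4.48 CPM in the WT necrotic ones. KO viable libraries gave 1.10, 1.09 and 1.13 CPM and KO necrotic libraries 0.672, 0.416 and 0.315 CPM, which rest on 7 to 28 counts each. The log2 fold change was -1.91 (SE 0.24) under viable and -2.84 (SE 0.29) under necrotic supernatant. Of 8 other BEACH genes tested, 1 rose under viable (Wdfy4, 0.21, adjusted p = 0.0476), 4 rose under necrotic supernatant and 0 fell. Those 4 included Wdfy3, the lysosomal trafficking regulator gene Lyst (0.56, adjusted p = 0.0176) and Nbeal2, which is needed for platelet granules (0.27, adjusted p = 0.0255). Nbeal1 was the other (0.32, adjusted p = 0.0447), while Lrba did not pass under either supernatant (0.04 and 0.12).

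Lrmda (ENSMUSG00000063458, chromosome 14, 22019712 to 23056085, plus strand) encodes a leucine-rich repeat protein whose loss causes a form of oculocutaneous albinism in humans. It rested on 11 to 55 counts per WT library, which gave 0.590, 0.759 and 1.10 CPM in the WT viable libraries and 0.926, 0.836 and 1.12 CPM in the WT necrotic ones. The KO libraries gave 6.12, 6.72 and 6.40 CPM under viable and 7.32, 8.01 and 7.02 CPM under necrotic supernatant. The log2 fold change was 2.84 (SE 0.18) and 2.93 (SE 0.18). Of 19 other tested genes of lysosome-related organelles, 2 rose in KO under viable supernatant and 0 fell: Hps3, a subunit of the BLOC-2 complex (0.28, adjusted p = 0.0125), and Ap3b1, a subunit of the AP-3 adaptor (0.16, adjusted p = 0.0342). Only Hps3 rose under necrotic supernatant (0.19, adjusted p = 0.0475).

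Eps8l1 (ENSMUSG00000006154, chromosome 7, 4460674 to 4480487, plus strand) belongs to the Eps8 family, which links receptor signalling to actin. WT libraries held 1 to 17 counts, or 0.215, 0.0584 and 0.339 CPM under viable and 0.0617, 0.558 and 0.207 CPM under necrotic supernatant. The KO libraries held 5.26, 5.45 and 5.71 CPM under viable and 4.71, 5.15 and 3.42 CPM under necrotic supernatant. The fitted log2 fold change of 4.43 (SE 0.34) and 3.98 (SE 0.37) depends on these few WT counts. Without WT viable 3, which holds 17 of the 22 WT viable counts, the first was 5.23, and without WT necrotic 2, which holds 10 of the 16 WT necrotic counts, the second was 4.85. The family member Eps8 did not pass, at 55.6 ± 2.81 CPM in the WT viable and 58.3 ± 2.26 CPM in the KO viable libraries (adjusted p = 0.638 and 0.922). None of 11 tested genes of Eps8 and its actin partners passed under either supernatant, and Eps8l2 never exceeded 0.144 CPM.

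Mid1 (ENSMUSG00000035299, chromosome X, 169685199 to 170005736, plus strand) encodes a microtubule-associated ubiquitin ligase that targets the catalytic subunit of protein phosphatase 2A through alpha4. In C57BL/6 mice the gene spans the boundary of the pseudoautosomal region, the stretch that X and Y share. WT libraries held 0 to 14 counts, or 0, 0.409 and 0.279 CPM under viable and 0.0617, 0.223 and 0.207 CPM under necrotic supernatant. KO libraries held 24 to 56 counts, or 1.15, 1.94 and 2.02 CPM under viable and 2.21, 1.92 and 1.62 CPM under necrotic supernatant. The fitted log2 fold change was 2.79 (SE 0.44) and 3.45 (SE 0.50), and it was 2.40 without WT viable 1, the library with no count. None of 10 tested genes of alpha4 and protein phosphatase 2A passed in KO minus WT, nor did the paralog Mid2 (1.10 ± 0.243 CPM in WT viable and 1.16 ± 0.257 CPM in KO viable libraries, adjusted p = 0.936).

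The sex-linked genes bear on Mid1. Xist, the RNA of the inactive X, had 0 to 3 counts in every library, and the Y genes Ddx3y, Uty, Kdm5d and Eif2s3y were expressed in all 12. All 12 libraries, WT and KO, thus had the pattern of male cells. Eif2s3y was 59.8 to 63.4 CPM in WT and 81.5 to 88.1 CPM in KO libraries, without overlap (log2 fold change 0.47 and 0.49, adjusted p = 2.86e-05 and 1.72e-05). Kdm5d rose under viable supernatant (0.30, adjusted p = 0.0340), and Ddx3y and Uty did not pass under either. The part of a sex chromosome difference in the Mid1 values was not tested.

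Wwc2 (ENSMUSG00000031563, chromosome 8, 47823959 to 47990924, minus strand) encodes a WW and C2 domain protein of the Hippo pathway, which restrains growth through the kinases Lats1 and Lats2. It stood at 17.6, 20.1 and 20.3 CPM in the WT viable libraries and 21.7, 21.5 and 22.5 CPM in the WT necrotic ones. The KO libraries held 37.8, 39.4 and 39.6 CPM under viable and 42.1, 39.9 and 38.3 CPM under necrotic supernatant. KO minus WT on the log2 scale was 1.00 (SE 0.07) and 0.87 (SE 0.07). The paralog Wwc1 was far lower and fell in KO under viable supernatant, from 1.38 ± 0.284 to 0.697 ± 0.162 CPM (-1.05, SE 0.29, adjusted p = 0.0488), and did not pass under necrotic supernatant (-0.50, adjusted p = 0.335). Of 22 other Hippo genes tested, 1 rose and 2 fell under each supernatant. The kinase gene Lats2 rose under viable (0.25, adjusted p = 0.0388), and Ccn1, a secreted matrix protein and target of YAP, fell under both (-1.27, adjusted p = 0.0168, and -1.11, adjusted p = 0.0383). Its relative Ccn2 fell under necrotic supernatant (-1.59, adjusted p = 0.0257), where Taok1 rose (0.34, adjusted p = 0.0290). Ccn1 and Ccn2 are also abundant in stromal cells, 3 of whose 8 tested markers were lower in KO under viable and 1 under necrotic supernatant, and their part in these values was not tested.

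**Figure D2:**
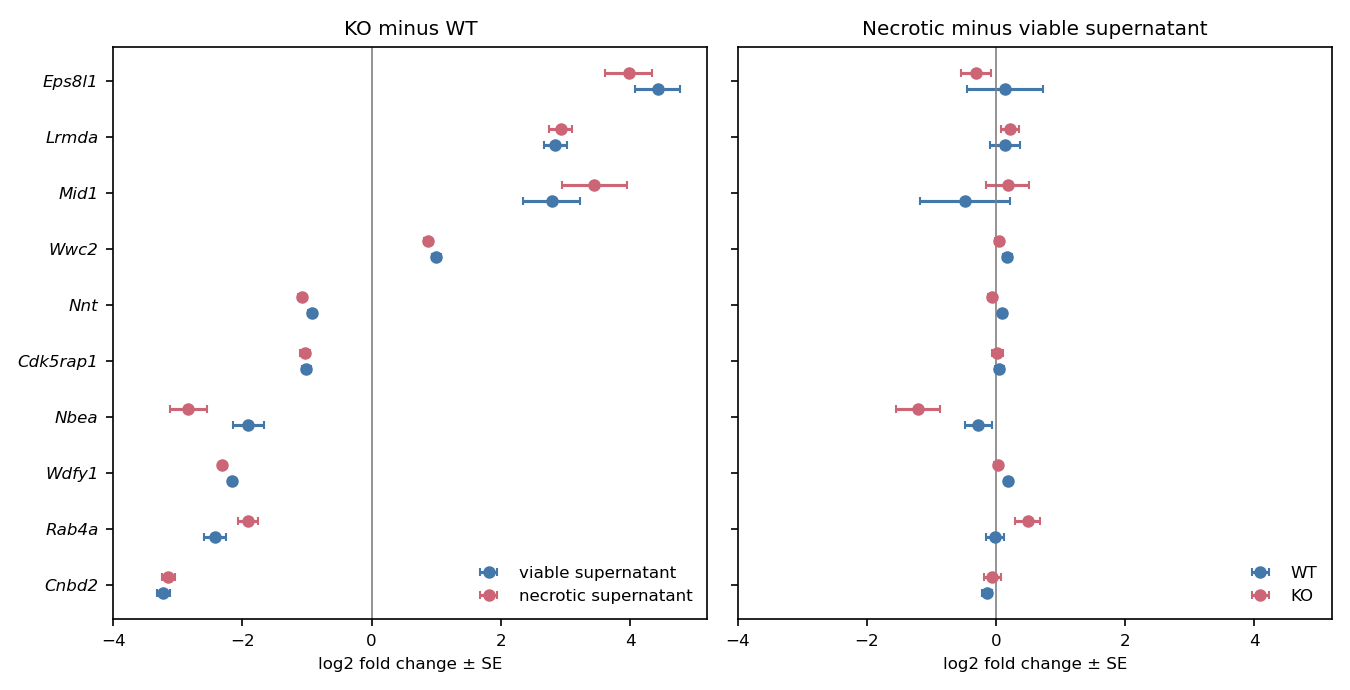
Log2 fold change with its SE (horizontal axis) of the 10 genes for KO minus WT under each supernatant (left) and for necrotic minus viable supernatant in each genotype (right). On the left all points lie at or beyond 0.87 from 0, and on the right Nbea in KO, at -1.21, lies farthest from 0.

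Per kilobase of summed exon length, the 10 genes spanned a wide range of levels. In WT viable libraries Wdfy1 was highest at 15.6 ± 0.803 CPM per kilobase, then Nnt at 12.3 ± 0.606, Cnbd2 at 8.73 ± 0.519, Rab4a at 5.52 ± 0.802, Cdk5rap1 at 5.37 ± 0.322 and Wwc2 at 1.40 ± 0.109. Rab4a and Cdk5rap1 did not differ beyond their spread. Lrmda (0.300), Nbea (0.131), Mid1 (0.0341) and Eps8l1 (0.0338) followed. In KO viable libraries the order was Nnt (6.51 ± 0.350), Wdfy1 (3.50 ± 0.181), Wwc2 (2.83 ± 0.0699), Cdk5rap1 (2.67 ± 0.0776) and Lrmda (2.36 ± 0.110). Rab4a (1.04 ± 0.281), Cnbd2 (0.934 ± 0.0683) and Eps8l1 (0.907 ± 0.0371) did not differ beyond their spread there, and Mid1 (0.253) and Nbea (0.0353) were lowest.

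**Figure D3:**
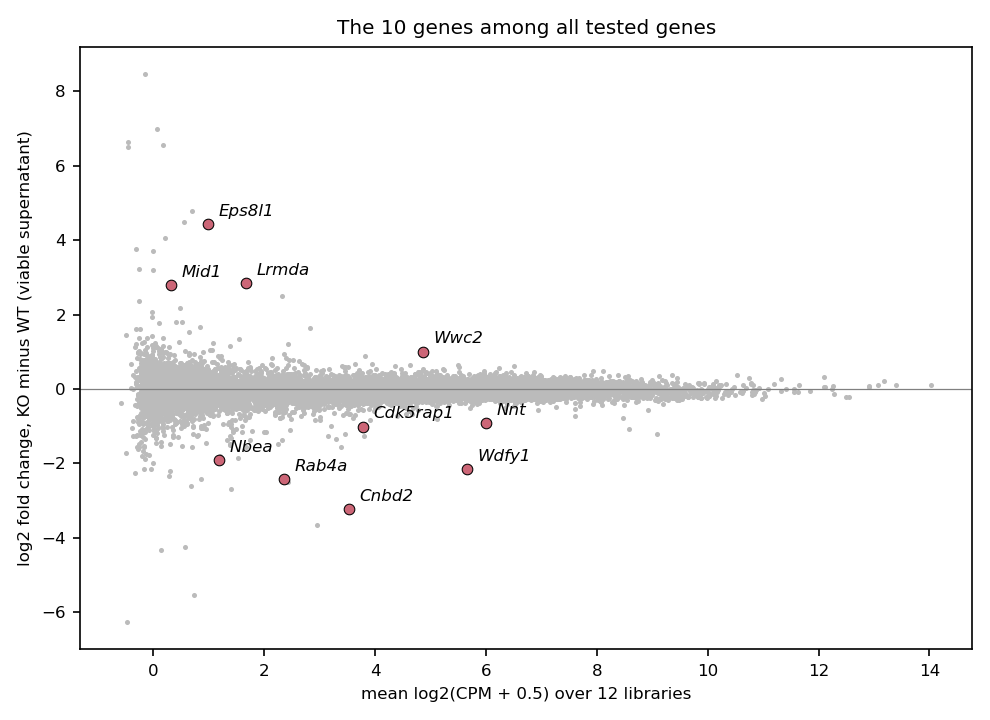
Log2 fold change, KO minus WT under viable supernatant (vertical axis), against the mean log2(CPM + 0.5) over 12 libraries (horizontal axis) for all 14153 tested genes (grey) and the 10 listed genes (red). The listed genes stand at the edge of the cloud, from -3.23 for Cnbd2 to 4.43 for Eps8l1.

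As a description of the listing, by the worse of the p ranks under viable and necrotic supernatant among 12961 tested genes with a position off chromosome 11, Wdfy1 and Cnbd2 came first and second and Mid1 was number 36. The 10 genes are therefore not the first 10 by that order. Genes that are not listed but stand between them include Ifi208, Cep85, the immunoglobulin genes Igkc and Ighg2b, Slc15a2, Pgap1 and Atp9a. By the size of the fold change under viable supernatant Eps8l1 ranked 8 and Nnt 194. Over the 12 libraries, the unlisted gene with the most similar centred log2 CPM profile was Cep85 on chromosome 4 for both Nnt (Euclidean distance 0.57) and Cdk5rap1 (0.49), among 11315 candidates. It was Camk2b on chromosome 11 for Cnbd2 (0.66) and Wdfy1 (1.38), Ifi208 for Eps8l1 (1.04), Igkc for Mid1 (1.07), Ighg2b for Lrmda (1.23), Rap1gap for Wwc2 (0.51), Efcab7 for Nbea (1.48) and Xlr for Rab4a (1.62). These profiles carry the genotype difference on which the genes were listed, so likeness is a description only, and shared regulation was not tested. The nearest gene can still be unlike: WT over KO was 38.2 for Camk2b and 4.72 for Wdfy1.

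The supernatant response was not used to list the genes and was tested. It shares group means and the estimate of spread with the comparisons used for the listing, so its p-values are not independent of the listing. In WT, 1 of the 10 passed against 9.31% of all tested genes (4.81% higher and 4.5% lower), and in KO 1 of 10 against 7.43% (4% higher and 3.43% lower), so both counts are near the share over all genes. Wdfy1 rose in WT from 101 ± 5.21 to 115 ± 2.87 CPM (0.18 on the log2 scale, SE 0.05, adjusted p = 0.0341). The call was lost without any 1 of KO necrotic 3, KO viable 2, WT necrotic 1, 2 or 3, or WT viable 2 (adjusted p = 0.0558, 0.0562, 0.0621, 0.0652, 0.0823 and 0.175). In KO the response of Wdfy1 was 0.03 (SE 0.06, adjusted p = 0.836).

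Nbea fell with necrotic supernatant in KO, from 1.11 ± 0.0228 to 0.468 ± 0.184 CPM (-1.21 on the log2 scale, SE 0.34, adjusted p = 0.0437). This rests on 69 and 32 counts in all. It was lost without any 1 of KO necrotic 2 or 3, KO viable 1, 2 or 3, or WT viable 2 (adjusted p = 0.119, 0.187, 0.100, 0.0969, 0.117 and 0.0572). In WT the value was -0.28 (SE 0.21, adjusted p = 0.438). Rab4a in KO (0.49, SE 0.20, adjusted p = 0.157) and Wwc2 in WT (0.17, SE 0.07, adjusted p = 0.122) did not pass. The other results in both genotypes did not pass either, with log2 fold changes between -0.48 (Mid1 in WT) and 0.22 (Lrmda in KO).

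The difference of the responses, KO minus WT, tests whether the genotype difference depended on the supernatant. It equals KO minus WT under necrotic less that under viable supernatant, on which the genes were listed. For the 10 genes its p-values are therefore not independent of the listing. None of the 10 passed, nor did any of the 14153 tested genes by edgeR (0%), while 1064 genes had an unadjusted p under 0.05, and DESeq2 also called 0. The largest difference among the 10 was that of Nbea (-0.93, SE 0.40, adjusted p = 0.614), and Rab4a followed among those with the smallest p (0.51, SE 0.24, adjusted p = 0.663). For Wdfy1 it was -0.15 (SE 0.08, adjusted p = 0.677), for Nnt -0.16 (SE 0.08, adjusted p = 0.663), and for Cdk5rap1 -0.03 (SE 0.11, adjusted p = 0.966). For Eps8l1 (-0.45) and Mid1 (0.66) the SE was 0.63 and 0.77, so the precision of these differences was low.

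The neighbours of the 10 genes were not members of the list and were tested, but 5 of them overlap a listed gene and may share its reads. Within 1 Mb of the 10 starts lay 185 other tested genes. Of these, 17 (9.19%) passed in KO minus WT under viable supernatant against 5.84% of all tested genes, and 18 (9.73%) under necrotic supernatant against 8.13%. Under both, with the same sign, 10 (5.41%) passed, 5 higher and 5 lower, against 2.32% of all tested genes. In each of these counts, 3 of the genes higher in KO were neighbours of Mid1, at no more than 0.446 CPM in any WT library. Those 3 passed the filter on low counts only through the KO libraries, where they were higher, so their calls are a description only. Without the 5 overlapping genes, 15 (8.33%), 16 (8.89%) and, under both, 8 (4.44%) of 180 passed. Gm21887, a neighbour of Mid1 that does not overlap it, is still among them. The counts moved with single libraries, as did those over all genes. Under viable supernatant they fell to 10, 8 and 10 without KO viable 1, 2 and 3, and to 11 and 8 without WT viable 1 and 2. Without KO viable 2 this was 4.19% of the neighbours against 1.57% of all genes in the same fit, and without WT necrotic 1, where 22 passed, 11.5% against 7.31%. Under necrotic supernatant 8 and 9 passed without KO necrotic 1 and 2, 9 without WT necrotic 2 and 27 without WT viable 1. The first of these was 4.23% against 1.13% of all genes, and the last 14.1% against 11.1%.

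The neighbours that passed under both supernatants were those of Mid1 (3 of 7), Cdk5rap1 (3 of 21), Eps8l1 (2 of 57) and Rab4a (2 of 31). For Wdfy1 (7 neighbours), Cnbd2 (38), Nnt (10), Lrmda (8), Nbea (1) and Wwc2 (6) the count was 0. Around Wdfy1, Wwc2 and Nbea, 0 neighbours passed under either supernatant. The difference at these 6 genes therefore had no called neighbour under both supernatants within 1 Mb. With so few neighbours a count of 0 says little. Distances run from start to start, and Lrmda spans 1036374 bases, so its downstream window lies within the gene. Within 2 Mb, 2 neighbours of Cnbd2 and 1 of Lrmda passed under both supernatants, and 0 of Wdfy1, Nnt, Nbea and Wwc2.

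Near Mid1, all 3 called neighbours were higher in KO and lie at or past its 3′ end, while Hccs, Arhgap6 and the others on the far side did not pass. The 3 called neighbours have predicted-gene names, passed the filter on low counts only through the KO libraries, and are named here after their values were seen. Their p-values are therefore a description only. G530011O06Rik was 0.292 to 0.446 CPM in WT and 1.05 to 1.93 CPM in KO libraries (log2 fold change 1.79, adjusted p = 0.00179, and 2.33, adjusted p = 1.91e-04). Gm15247 was 0 to 0.0829 CPM in WT and 0.363 to 0.720 CPM in KO libraries. Both overlap Mid1 on the opposite strand, and since the strand setting of the counting is not given, their reads and those of Mid1 cannot be told apart. Gm21887, 324 kb from the start of Mid1 and past its annotated end, had 0 or 1 count in each WT library and 23 to 96 counts in KO libraries.

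Beside Cdk5rap1, Cbfa2t2, a transcriptional corepressor gene 63.5 kb away, rose from 25.9 ± 0.882 to 34.7 ± 2.19 CPM under viable (0.42, adjusted p = 0.00200) and by 0.28 under necrotic supernatant (adjusted p = 0.0194). Nol4l, 843 kb away, fell (-0.38, adjusted p = 0.0169, and -0.47, adjusted p = 0.00662). 1700003F12Rik, 174 kb away, fell as well (-2.41, adjusted p = 1.64e-04, and -1.59, adjusted p = 0.00298). Between 1 and 2 Mb away, Kif3b, a kinesin motor gene, rose (0.34 and 0.32, adjusted p = 2.08e-04 and 4.73e-04). 1700003F12Rik and Kif3b are named after their values were seen. In the 1 Mb bin of chromosome 2 that starts at 154 Mb, where Cdk5rap1 lies, 2 of 11 tested genes passed under both supernatants. From 156 to 157 Mb, where Cnbd2 lies, it was 0 of 21, against 2.32% of all tested genes. The bin from 153 to 154 Mb, which holds neither gene, had 4 of 14. It is given because its count was the largest of the bins examined on this chromosome. Of the 35 tested genes between Cdk5rap1 and Cnbd2, 2 (5.71%) passed under both, against the same 2.32%. Whether the 2 listed genes share 1 altered stretch of the chromosome was not tested.

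Beside Eps8l1, both called neighbours moved against it. Tnni3, the cardiac troponin I gene 63.6 kb away, fell from 2.40 ± 0.739 to 0.836 ± 0.196 CPM under viable supernatant (-1.44, adjusted p = 0.0130, and -1.23, adjusted p = 0.0224 under necrotic). Dnaaf3, a dynein assembly factor gene 71.8 kb away, fell from 5.60 ± 1.17 to 2.45 ± 0.284 CPM (-1.17, adjusted p = 0.00211, and -1.32, adjusted p = 0.00126). Their annotated intervals overlap by a short stretch, so reads there can be ambiguous. Near Rab4a the called neighbours were Rhou, a small GTPase gene (-0.31, adjusted p = 0.0478, and -0.28, adjusted p = 0.0475), and Ankrd11, a chromatin regulator gene (0.24, adjusted p = 0.0419, and 0.28, adjusted p = 0.0199). For comparison, 2 of 24 genes within 1 Mb of Clec4e passed under both supernatants.

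**Figure D4:**
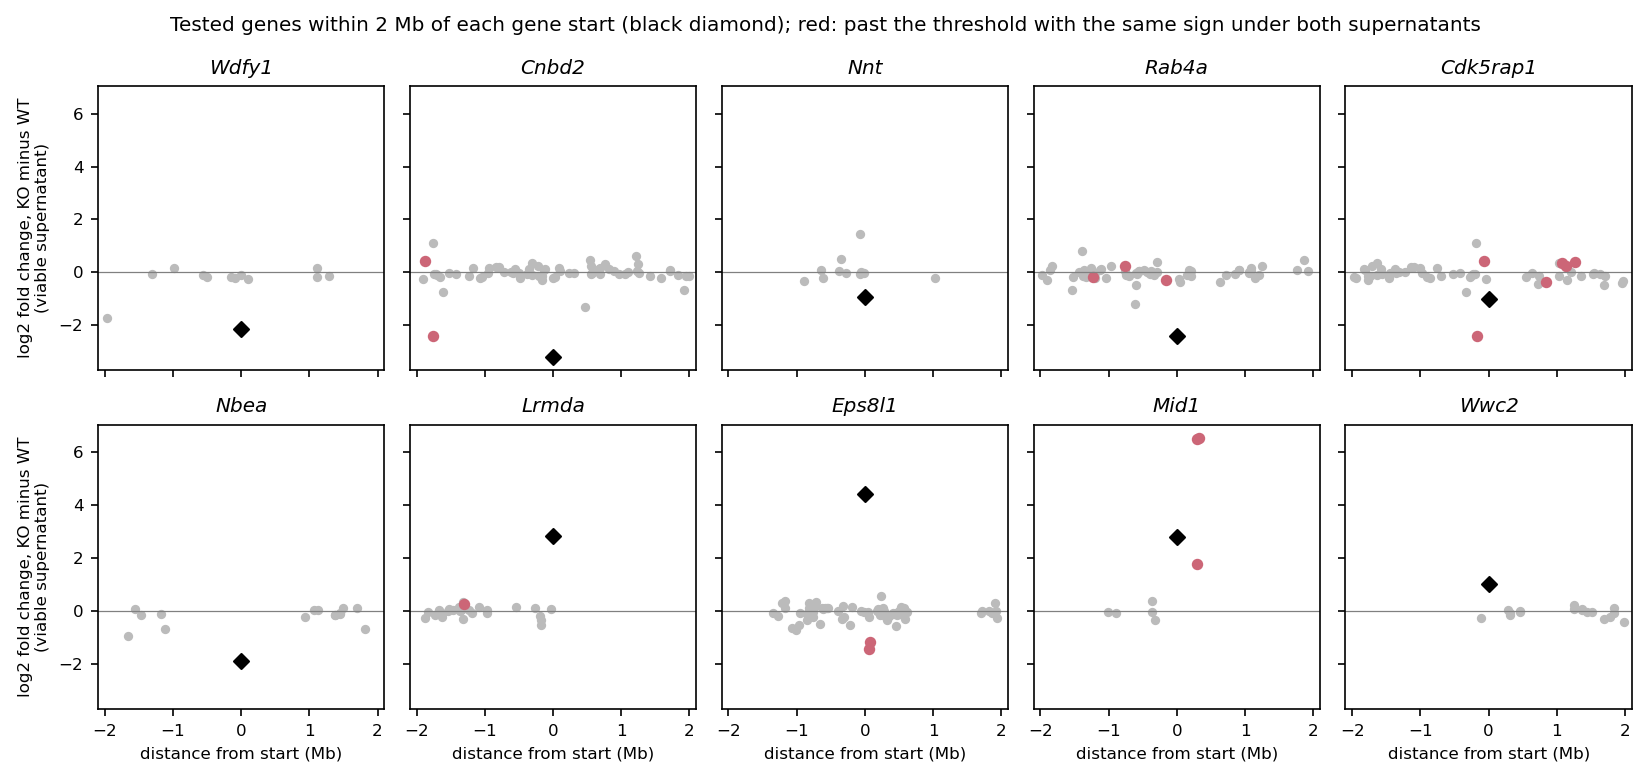
Log2 fold change, KO minus WT under viable supernatant (vertical axis), of tested genes by the distance of their start from the start of each of the 10 genes (horizontal axis, Mb, positive in the direction of transcription). Black diamonds are the listed genes, red points are neighbours past the threshold with the same sign under both supernatants (3 of 7 within 1 Mb for Mid1, 0 of 7 for Wdfy1), and grey points are the rest.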

How the data were processed

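The deposited file was 1 table of raw read counts, without normalization, for Ensembl genes in 12 libraries (3 in each of 4 groups). Per the submitters' processing notes, CASAVA, HISAT2 2.0.5, HTSeq 0.6.1 and the GRCm38 build were used, and per the labels' protocols paired-end reads came from NEBNext Ultra libraries. Not given in the sources used here are the annotation release, the strand setting and how reads matching several genes were treated. Symbols and positions came from GENCODE M21 (GRCm38), which matched 46488 of 46983 identifiers, and promoters from RefSeq (GRCm38.p6).

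Genes were filtered with filterByExpr, scaled with TMM factors and fitted with edgeR 4.0.16 (R 4.3.3) in 1 quasi-likelihood model of 4 group means with 8 residual degrees of freedom. Two-sided p-values were adjusted by Benjamini-Hochberg over 14153 genes, with a threshold of 0.05. Every adjusted p is from this test, and an SE is the log2 fold change divided by the square root of its F statistic. The script was tested on simulated data. No pair of replicates agreed within sampling noise (chi-square over its degrees of freedom from 3.28 to 23.3), and each was counted as 1 sample. Such spread cannot show whether the replicates came from separate mice or cultures. Depth ran from 16382366 to 49612055 counts.

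The 10 genes, the gene lists and the 1 Mb window were chosen with earlier results of these data known. Named besides the 10 genes are Clec4e, paralogs, up to 3 called genes per list by p, up to 3 called neighbours per gene by size, and the nearest profile per gene. Predicted-gene names were left out of the neighbours except where stated. Alternatives were median-ratio factors, DESeq2 1.42.0, no filter, a replicate block, windows of 0.5 and 2 Mb, leaving out each library and, chosen after seeing the data, leaving out neighbours that overlap a listed gene.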

Additional observations from a re-analysis of the deposited data

How the results depend on the processing

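Under the 16 alternatives the KO minus WT fold changes of the 10 genes kept their direction. With no overlap between the genotypes, this follows from how the genes were listed and is no separate support. Their size moved, for Eps8l1 between 4.16 and 5.23 under viable and between 3.60 and 4.85 under necrotic supernatant. For Nbea under necrotic supernatant it lay between -3.23 and -2.56. Without a filter, 25720 genes were tested and the counts of called genes rose to 1618 (KO minus WT, viable), 1857 (KO minus WT, necrotic) and 209 (difference of responses), and 32 of 324 neighbours passed under viable supernatant. With a window of 2 Mb, 28 of 313 neighbours passed under necrotic supernatant. Leaving out 1 library gave 227 to 1060 called genes for KO minus WT under viable (lowest without KO viable 2), 163 to 1605 under necrotic supernatant (lowest without KO necrotic 1), 385 to 2015 for the WT response (without WT viable 2 and WT viable 1), 383 to 1277 for the KO response (lowest without KO necrotic 3) and 0 to 0 for the difference of responses. The called neighbours ranged from 8 to 22 under viable and from 8 to 27 under necrotic supernatant. Fewer libraries were fitted each time, and the cause was not tested further. The replicate numbers did not pair the libraries: deviations from the group means correlated between -0.29 and 0.14 over 18 same-numbered pairs, with 3 above 0.1. With the replicate number as a block, 744 and 1154 genes were called in KO minus WT, 1231 and 947 in the WT and KO responses, 0 in the difference of responses, and 14 and 18 neighbours. Wdfy1 in WT (adjusted p = 0.0282) and Nbea in KO (adjusted p = 0.0476) stayed called under the block. Low counts limit Eps8l1 and Mid1 in WT and Nbea in KO.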
